A study of Bos indicus with 12 samples.

Results

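Low methylation was examined in 474 windows of 100 bp of the bovine genome, in which each of 12 muscle samples had between 8% and 30% of its reads methylated. The windows were chosen on these measured levels. Autosomes 1 to 29 were divided into consecutive windows of 100 bp, the methylated and unmethylated reads of each window were summed per animal, and a window was kept when it held at least 4 covered cytosines and its level lay from 8% to 30% in every animal. Of 57738 autosomal windows with at least 4 covered cytosines, 0.821% met the rule, and they held 3461 of the 409247 cytosines in these windows. The level of a window is the percentage of methylated reads among all its reads. Coordinates are those of the ARS-UCD1.2 build, counted from 1.

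The samples were *Longissimus thoracis* skeletal muscle of Nelore (*Bos indicus*) steers, with 1 reduced representation bisulfite sequencing (RRBS) library per animal. A set of 6 animals with higher shear force, the force needed to cut a cooked steak, formed the Tough group (lower tenderness), and 6 with lower shear force formed the Tender group (higher tenderness). According to the study's methods, the animals were the extremes of a larger feedlot herd by breeding value for shear force, had different sires within a group and shared ration and handling, and the labels name no treatment, genotype or age. Shear force was taken after 7 days of aging by the labels, while the study's methods give another day.

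In mammals, methylation is found mainly on cytosines followed by guanine (CpG). CpG-rich regions such as many promoters are mostly unmethylated, most other CpGs are largely methylated, and levels in between are found at the borders of CpG islands and at sites that are methylated in part of the molecules. Bisulfite turns unmethylated cytosine into a base read as thymine, so that a cytosine that escapes this conversion is read as methylated. RRBS reads fragments cut by *MspI*, an enzyme that cuts at CCGG, and therefore covers CpG-rich sequence. A level of 20% in muscle can come from a small part of the cells or from partial methylation in many of them, and these cannot be told apart in bulk DNA.

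The levels were first set against those of mitochondrial DNA and of nearly unmethylated windows, called background here. Such levels hold reads that appear methylated without being so, and in the windows may also hold real low methylation. No conversion control was used here to tell these apart. The 162 covered mitochondrial cytosines, from DNA that carries little CpG methylation, had 0.441% ± 0.217 methylated reads in the Tough group and 0.528% ± 0.147 in the Tender group (SD, n = 6 each). In the 35774 autosomal windows whose mean level was below 5%, the mean per animal was between 0.842% and 1.70%. The least methylated value of any selected window in any animal was 8.0%, above both backgrounds, which follows from the rule. The background of nearly unmethylated windows split the libraries into a low set of 5, from 0.842% to 0.972% (Tough 2, Tough 5, Tough 6, Tender 2 and Tender 5), and a high set of 7, from 1.59% to 1.70%. The mean over the 474 windows was 17.3% ± 0.909 in the low set and 17.7% ± 0.761 in the high set (SD, n = 5 and 7).

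Over the 474 windows, the mean level of the 12 animals had a median of 17.4% and ranged from 10.3% to 26%. It was from 10% to under 15% in 83 windows, from 15% to under 20% in 294 and from 20% to under 26% in 97. The SD over animals had a median of 4.5 percentage points, with quartiles of 3.76 and 5.32. A window had a median of 210 reads per animal (40 to 1560), for which the binomial standard error of an animal's level had a median of 2.60 points. The overdispersion factor, the ratio of observed to binomial variance within groups, had a median of 2.85. It was 4.93 in the 3953 windows whose mean also lay from 8% to 30% but with at least 1 animal outside these bounds (called windows of similar mean below), which is a difference the rule itself favours. Reads that span several cytosines of a window are counted once for each, so the binomial error understates the true counting error, and the SD over animals and the overdispersion factor hold an unknown part of it.

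**Figure D1:**
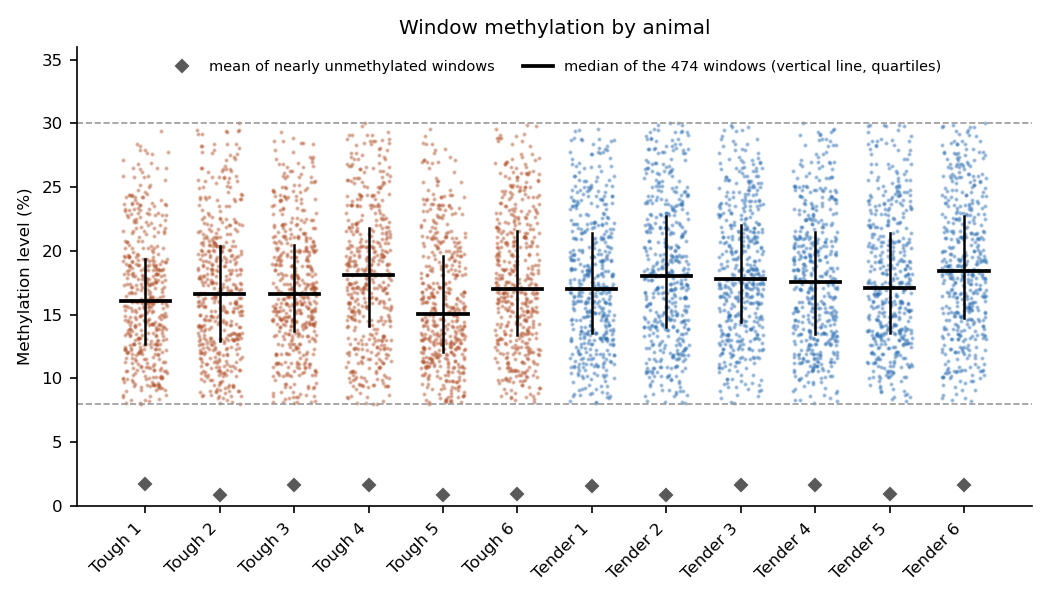
Methylation level (%) of each of the 474 windows (points) in each of the 6 Tough (brown) and 6 Tender (blue) animals, with the median and quartiles as black lines and the bounds of 8% and 30% dashed. The medians lie between 15.1% (Tough 5) and 18.4% (Tender 6), and the grey diamonds, the means of nearly unmethylated windows, lie between 0.842% and 1.70%.

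The plot of levels by animal shows that every animal spread its windows over nearly the whole permitted range. The lowest window of an animal lay between 8.0% and 8.26% and the highest was at or above 29.3%. The mean over windows was lowest in Tough 5 (16.0%) and highest in Tender 6 (18.7%).

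Since all 12 animals were used to choose the windows, their range is a product of the rule. To keep 1 animal at a time out of the choice, windows were chosen on 11 animals and the level was read in the animal left out. Between 498 and 555 windows were chosen in this way, and 85.4% (Tender 2) to 95.2% (Tough 1) of them lay from 8% to 30% in the left-out animal. The windows inside the bounds were the same 474 for every left-out animal. The 12 shares therefore differ only by the number of windows chosen, describe the same selection and are not separate checks. Of windows chosen on the mean of 11 animals alone, a looser choice, 64.4% to 74.1% lay inside the bounds in the left-out animal. Of all windows with at least 4 cytosines, 7.24% to 8.22% did so. Values of the left-out animal that missed the bounds were below 8% in 2.11% to 8.79% of windows and above 30% in 1.61% to 8.47%.

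Several windows lay close to the bounds. The lowest accepted values were 8.0% (Tough 5) at chr9:50908701-50908800, followed by 8.02% at chr8:64879601-64879700 (Tough 2), chr7:43452701-43452800 (Tough 1) and chr7:19790701-19790800 (Tough 4). Just outside were chr12:34476601-34476700 at 7.98% in Tough 2, chr18:12315201-12315300 and chr26:22317501-22317600 at 7.97% in Tender 5 and Tender 2, and chr9:97898201-97898300 at 7.96% in Tough 4. At the upper bound, chr23:28188501-28188600, chr3:119692101-119692200, chr5:115818501-115818600 and chr21:22955101-22955200 reached the bound of 30% in 1 animal and were kept, while chr12:86449901-86450000, chr17:60783401-60783500, chr12:76662201-76662300 and chr2:107452001-107452100 reached 30.1% and were not. One read more or less decides membership at these values.

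The windows that varied least over the 12 animals were chr16:49363001-49363100 (SD 1.31, mean 12.8%), chr10:8754901-8755000 (SD 1.53, 13.3%), chr21:56110901-56111000 (SD 1.63, 15%) and chr7:19790701-19790800 (SD 1.83, 11.2%). At chr16:49363001-49363100 the Tough animals had 11.9%, 12.6% and 15.2% (lowest, median, highest) and the Tender animals 10.9%, 12.3% and 15%, from 326 to 593 reads per animal. Tough 6 held the highest value, and the groups overlapped almost fully. The windows that varied most were chr19:11687201-11687300 (SD 7.67), chr9:49488301-49488400 (SD 7.62), chr8:69867301-69867400 (SD 7.22) and chr28:29628501-29628600 (SD 7.17). At chr19:11687201-11687300 the Tough animals had 8.10%, 12.9% and 28.4% and the Tender animals 10.3%, 19.5% and 28.8%, from 247 to 536 reads. High and low animals of both groups were mixed in it, with Tough 5, Tender 1, Tender 2 and Tender 6 above 23% and the other animals at or below 17.5%.

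The question of evenness was whether the level of a window was shared by its cytosines or was the average of high and low ones. Few windows were even. In 94 of the 474 (19.8%), the mean over animals of every covered cytosine lay from 8% to 30%, and in 255 (53.8%) from 5% to 40%. The range between the lowest and the highest cytosine of a window had a median of 25.8 percentage points, with quartiles of 18.9 and 33. The lowest cytosine of a window had a median of 6.24% and the highest one of 32%. A cytosine below 3%, close to the background, was present in 101 windows (21.3%), a cytosine above 50% in 32 (6.75%), and both in 17 (3.59%). Of the 3461 cytosines, 139 lay below 3%, 506 from 3% to under 8%, 2406 (69.5%) from 8% to 30%, 373 above 30% to 50% and 37 above 50%. Counting alone, with a median of 356 reads of a cytosine over the 12 animals, leaves a standard error of 1.85 points (median) on such a mean, less than these ranges. In windows of similar mean, every cytosine lay from 8% to 30% in 20.4%, and the range over cytosines had a median of 17.1. Both measures depend on the number of cytosines in a window, in which the sets differed. The 474 selected windows held 3461 cytosines and the 3953 windows of similar mean 24156.

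The pattern over the cytosines of a window was similar in both groups. The deviation of a cytosine from its window's mean in the Tough animals and in the Tender animals, which are separate libraries, had a correlation of 0.872 over the 3461 cytosines, and within a window the correlation of the group means over its cytosines had a median of 0.903. These values are descriptions, since cytosines of a window share reads and sequence. In single animals the order of cytosines was less clear. The same cytosine was the highest in all 12 animals in 37 windows (7.81%) and in at least 9 animals in 129 (27.2%), at a median coverage of 30 reads for a cytosine in an animal. A steady course along the window, with a rank correlation between position and level beyond 0.8 in either direction, was found in 66 windows (13.9%).

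The most even windows with at least 6 covered cytosines were chr22:59737901-59738000 (18.6% to 23.9% over 6 cytosines), chr5:55735701-55735800 (13.2% to 19.5% over 6), chr19:51341401-51341500 (13.2% to 20.2% over 7) and chr29:49619101-49619200 (12.6% to 19.8% over 9). These windows were even over positions but spread over animals, with SDs from 4.82 points (chr19:51341401-51341500) to 6.30 points (chr5:55735701-55735800). The lowest of these SDs was close to the median SD of all selected windows. At chr5:55735701-55735800 the Tough animals had 8.96%, 18.7% and 29.1% and the Tender animals 8.98%, 13.7% and 24.3%. At chr29:49619101-49619200 the values were 8.65%, 13.8% and 22.4% in Tough and 10.4%, 16.7% and 29.3% in Tender.

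In the least even windows, the level of the window was carried by a few positions. At chr11:105929701-105929800, the CpG at position 26 of the window had 68.3% on the plus strand and 73.8% on the minus strand, while the CpGs at positions 5 and 55 had between 2.58% and 2.80% on either strand. Similarly, at chr23:27238101-27238200 the CpG at position 13 had 62.5% and 67.3% on its strands, and the other cytosines had between 1.65% and 7.2%. In both windows 1 CpG was far above the other covered cytosines, which the pooled level of 22.5% and 23.3% does not show. The window chr18:63232301-63232400 instead had a slope, from 0.403% at position 33 to 66.0% at position 90, next to a right flank of 90.0% and a left flank of 4.01% (1 cytosine). At chr13:79556401-79556500, 15 cytosines ranged from 1.27% to 57.7%. The minus strand (31.2%) was above the plus strand (13.4%), but it was covered at positions 7 to 52 and the plus strand at positions 51 to 97. At the only CpG covered on both strands, at position 51, the strands had similar levels (12.5% on the plus strand). The difference between the strand levels therefore cannot be told apart from position.

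**Figure D2:**
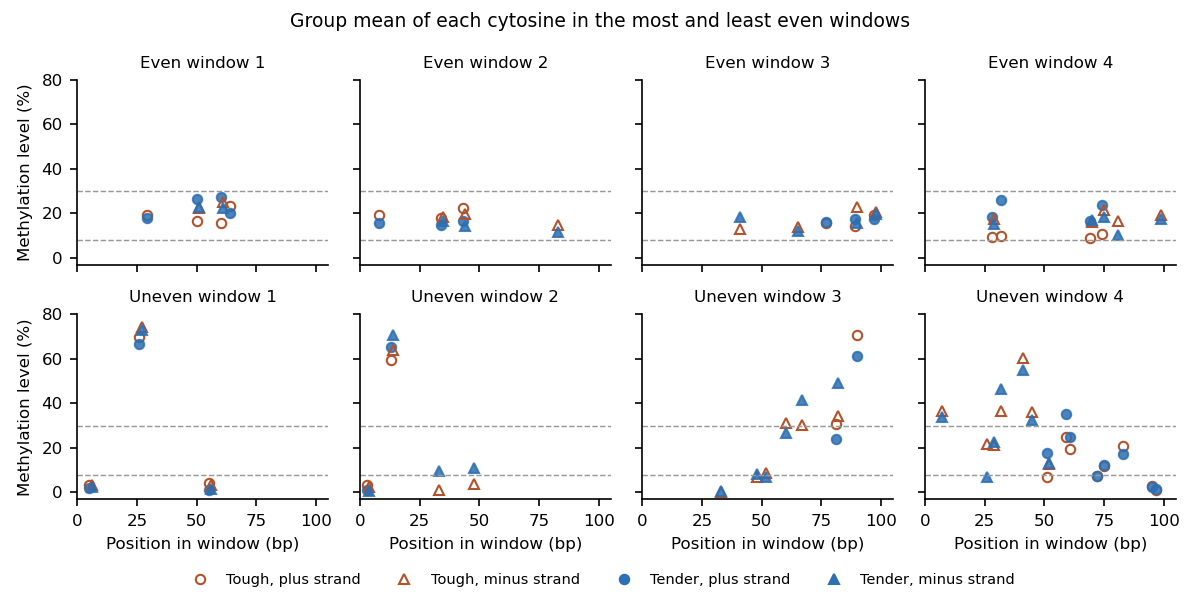
Mean methylation level (%) of each covered cytosine over the 6 Tough (open brown) and 6 Tender (filled blue) animals against its position in the window (bp), with circles for the plus strand and triangles for the minus strand. Even windows 1 to 4 are chr22:59737901-59738000, chr5:55735701-55735800, chr19:51341401-51341500 and chr29:49619101-49619200, whose cytosines stay near the dashed bounds of 8% and 30% or between them, and uneven windows 1 to 4 are chr11:105929701-105929800, chr23:27238101-27238200, chr18:63232301-63232400 and chr13:79556401-79556500, whose cytosines reach from 0.403% to 73.8% on average over all 12 animals.

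The windows with most cytosines ranged from even to uneven. In chr27:14549001-14549100, 22 cytosines lay between 15.4% and 24.3%, and in the other 4 windows the ranges were wider, at 0.439% to 32.2% over 24 cytosines of chr19:18474101-18474200, 2.15% to 34.4% over 24 of chr22:48978001-48978100, 3.96% to 32.7% over 23 of chr11:105933901-105934000 and 1.42% to 54.8% over 22 of chr29:50542001-50542100. At chr19:18474101-18474200, the lowest mean of all 474 windows (10.3%), high cytosines on both strands were at positions 12 to 13 (25.4% and 32.2%), 61 to 62 (27.2% and 19.9%) and 66 to 67 (19.2% and 19.8%), and the last CpGs, from position 91 on, lay between 0.758% and 5.83%. The 22 cytosines of chr27:14549001-14549100 were even over positions but their strands went apart by group. On the plus strand the Tough animals had 11.4%, 24.7% and 30.5% and the Tender animals 7.77%, 15.5% and 19.7%. On the minus strand the Tough animals had 12.4%, 18.0% and 19.9% and the Tender animals 16.8%, 25% and 34.1%. This difference between strands was seen after the values were known and was not tested. Summed over strands the level was 20.3% ± 4.66 in Tough and 19% ± 3.5 in Tender (SD, n = 6 each, exact permutation p = 0.584, two-sided).

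Both strands were covered in 363 windows, the plus strand alone in 51 and the minus strand alone in 60. The level of the plus strand less that of the minus strand had a median of 0.412 percentage points, with quartiles of -4.16 and 4.33, and both strands lay from 8% to 30% in 329 of the 363. At the 901 CpGs covered on both strands, the strands differed by over 10 points in 152 (16.9%), and their means over animals had a correlation of 0.636 across CpGs. The strands are read from separate molecules. At chr22:18297801-18297900 the strands differed most among the named windows, with 54.1% on the minus strand and 14.3% on the plus strand. The strands were covered at different CpGs, so strand and position cannot be told apart there. The minus strand was covered at positions 27 and 37 (70.5% and 37.4%) and the plus strand at positions 51 and 84 (23.7% and 5.94%). The plus strand had the larger coverage and so set the pooled level of 20.3%.

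Whether the cytosines of a window also varied together between animals was described by the correlation, over the 12 animals, of their deviations from the group mean. It had a median of 0.202 for 6682 pairs on the same strand up to 50 bp apart, the length of a read, and of -0.0166 for 885 pairs on the same strand farther apart. For the strands of 1 CpG it was 0.0292 (898 pairs), and for different CpGs on opposite strands 9.44e-04 (5564 pairs). In windows of similar mean these medians were 0.418, 0.0839, 0.103 and 0.0879. Pairs in reach of the same read share molecules, and the rule limits the spread over animals in the selected windows.

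The surroundings were described by all covered cytosines within 500 bp on each side, of which both sides were covered for 191 windows, 1 side for 229 and none for 54. With the flanks of each window sorted by level, the lower flank had a median of 6.31% and the higher flank of 21.9%, compared with 7.17% and 21.7% in windows of similar mean and 1.10% and 2.20% in all windows with at least 4 cytosines. The difference between the sides had a median of 14.2 percentage points, compared with 10.4 and 1.01. In 66 windows (34.6%) a flank below 8% lay opposite a flank of 8% to 30%, and in 33 (17.3%) opposite a flank above 30%. Both flanks lay from 8% to 30% in 44 windows (23.0%), and a flank of 8% to 30% lay opposite a higher one in 33 (17.3%). Both flanks were below 8% in 11 windows (5.76%) and above 30% in 4 (2.09%). A sharp border, with less than 5% on one side and more than 50% on the other, was found in 6 of the 191 windows (3.14%), compared with 1.84% of 1524 windows of similar mean and 0.616% of all 28084 windows with at least 4 cytosines and both flanks. Both flanks were below 8% in 74.0% of all these windows and in 12.4% of windows of similar mean.

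Neighbouring windows were compared by distance. Of 456 covered windows next to a selected window, 62.9% had a mean from 8% to 30% and 12.7% a mean below 5%. Adjacent windows can share reads of 50 bp. The share from 8% to 30% was 41.8% at 200 bp, 28.9% at 300 bp, 26.2% at 500 bp, 15.1% at 1000 bp and 25.5% at 2000 bp (94 windows), and the share below 5% was 51.8% at 500 bp and 56.3% at 1000 bp. Around all windows with at least 4 cytosines, the share from 8% to 30% was 7.15% at 100 bp and 11.2% at 1000 bp. Of these 57738 windows, 35774 had a mean below 5% themselves. Windows of similar mean, whose median flank levels were close to those of the selected windows, were not compared by distance. Whether such neighbours are particular to the selected windows was therefore not tested. Neighbours above 50% made up 1.75% at 100 bp and 10.3% at 1000 bp of the selected windows, and 13.9% and 13.1% around all windows.

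**Figure D3:**
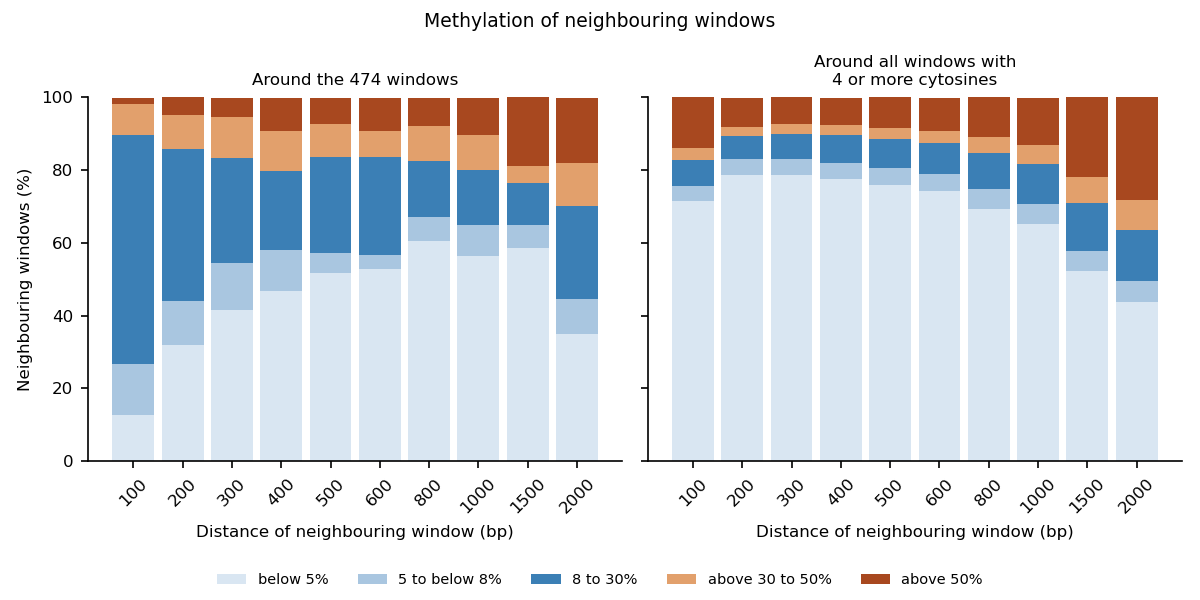
Share (%) of covered windows at each distance (bp, either side) from the 474 windows (left) and from all autosomal windows with at least 4 covered cytosines (right), by mean methylation level. Around the 474 windows, the share with 8% to 30% falls from 62.9% at 100 bp to 15.1% at 1000 bp, and that below 5% goes from 12.7% to 56.3%.

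Of the selected windows, 435 stood alone, and the others formed 18 pairs and 1 run of 3 windows. Among the 456 covered windows next to a selected window, 40 were selected themselves, compared with 194 of 55507 next to any window with at least 4 cytosines. Neighbours of windows of similar mean were not counted. The run, chr18:53393201-53393500, had mean levels of 21.7%, 13.8% and 11.6%, and within it single cytosines ranged from 0.883% to 44.0%. Every autosome held selected windows, from 2 on chromosome 27 (0.264% of its windows with at least 4 cytosines) to 38 on chromosome 19 (0.925%), and the share was highest on chromosome 29 (1.22%, 25 windows) and chromosome 17 (1.21%, 29 windows). A mean coverage above 100 reads per cytosine, which sequence present in several copies can give, was found in 5 windows.

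The last comparison was that of Tough and Tender animals, for which the study was made. The rule treats both groups alike, but it excludes windows with large differences. It also limits the spread of the animals within a group, by which the tests judge a difference. The p-values of the selected windows therefore need not hold their nominal rate, and they are given beside those of other windows. The largest differences in pooled reads were 9.71 points higher in Tender and 5.72 points higher in Tough. The mean over the 474 windows was 17.1% ± 0.772 in the Tough group, with 16.0%, 17.1% and 18.1% as lowest, median and highest animal, and 18.1% ± 0.458 in the Tender group, with 17.6%, 18.1% and 18.7% (SD, n = 6 each). The difference of 1.04 points was larger than either SD, but the groups overlapped in Tough 4 and Tough 6. Within the low-background libraries, the difference was 1.18 points (3 Tough and 2 Tender animals) and within the high-background libraries 0.869 points (3 and 4). It was 1.45 points in windows of similar mean, 0.361 points over all windows with at least 4 cytosines, 0.112 points in nearly unmethylated windows and 0.0875 points at mitochondrial cytosines.

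A higher mean in the Tender group was found in 304 of the 474 windows (64.1%), compared with 65.1% of windows of similar mean and 56.7% of all windows with at least 4 cytosines. In the logistic regression of reads on group, fitted to all 193249 windows with a correction for overdispersion and a chi-square test, 48 selected windows (10.1%) had an unadjusted p-value under 0.05, while 8.76% of all windows and 10.1% of windows of similar mean did so. The members' share was thus near the background. By direction, 41 of these windows (8.65% of the 474) were higher in Tender, with 5.36% of all windows, and 7 (1.48%) were higher in Tough, with 3.40% of all windows. With the F-test in place of the chi-square test, 33 windows passed (31 higher in Tender), and with limma on log2 ratios 2 passed (both higher in Tender), while 5.62% and 5.04% of all windows passed in these tests.

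After Benjamini-Hochberg adjustment over all 193249 windows, 0 of the 474 passed 0.05 in this regression, while 0.288% of all windows and 0.810% of windows of similar mean did. The lowest adjusted p-value was 0.0517. By the F-test and by limma also 0 of the 474 passed, with lowest adjusted p-values of 0.884 and 0.990, and neither test called any of the 193249 windows. The count of 0 depended on single animals. It became 1 without Tough 1, Tough 6, Tender 2, Tender 3 or Tender 6, 2 without Tough 2, Tough 3, Tough 4 or Tender 1, and 5 without Tender 4, and it stayed at 0 without Tough 5 or Tender 5. The number of all windows that passed also went up in each of these fits, from 557 to between 631 and 923. With the background set of the library as a second factor, 2 of the 474 and 909 of all windows passed.

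**Figure D4:**
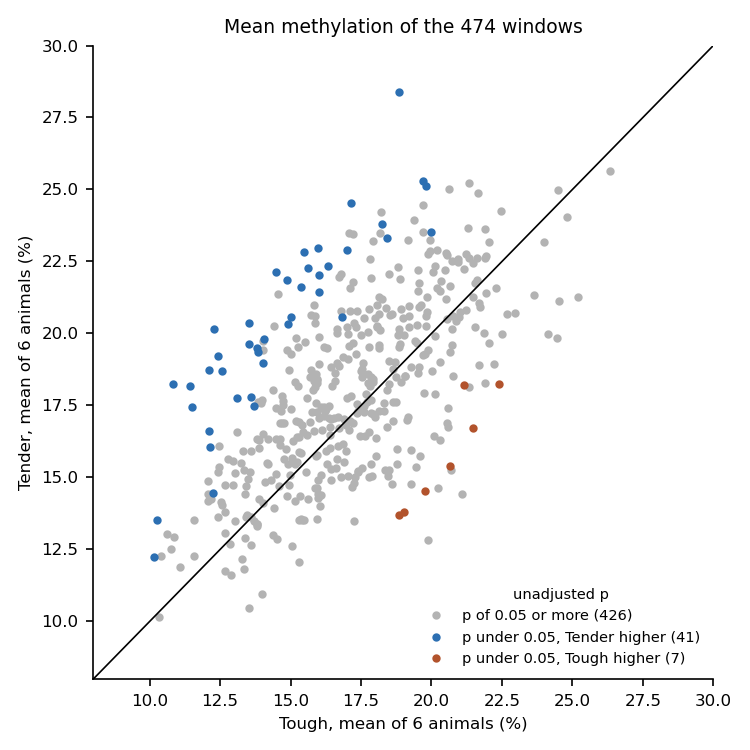
Mean level (%) of each of the 474 windows over the 6 Tough animals (horizontal axis) and the 6 Tender animals (vertical axis), with the line of equal means and the unadjusted p-value of the logistic regression as colour. The 41 windows with p under 0.05 and higher in Tender (blue) lie above the line, and the 7 higher in Tough (brown) below it.

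The groups did not overlap in 1 window, compared with 0.177% of all windows. This window, chr18:61584001-61584100 with 6 cytosines, was picked for mention after its values were seen. The Tough animals had 9.02%, 21.8% and 24.5% and the Tender animals 27.6%, 28.1% and 29.5%. All Tender animals lay close together under the upper bound of the rule, while 2 Tough animals (Tough 2 and Tough 5, at 9.02% and 11.4%) lay far below the other Tough animals. Its difference in pooled reads was 9.71 points, the largest of the 474, with an unadjusted p = 0.00239 and a Benjamini-Hochberg adjusted p = 0.182 in the logistic regression.

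The windows of smallest p-value in each direction were picked on the same levels that the permutation test uses. Their exact permutation p-values therefore tend to be low and are not a second test. Among the 5 windows with the smallest p-value and higher methylation in Tender, chr13:23444901-23445000 had 12.3%, 14.6% and 18.9% in the Tough animals and 18.3%, 21.7% and 25.1% in the Tender animals, over 6 cytosines and 149 to 270 reads per animal. The groups met only at Tough 1, Tough 4 and Tender 6, whose values lay between 18.3% and 18.9%. The difference of means was 6.21 points (15.4% ± 2.64 and 21.6% ± 2.45, SD, n = 6 each), with an exact permutation p = 0.00433, two-sided, where the smallest possible p is 0.00216. Its adjusted p-value of 0.0517 in the logistic regression (Benjamini-Hochberg) was 0.0193, 0.0283 and 0.0275 without Tough 1, Tough 4 and Tender 6, the animals of the overlap, and above 0.05 without any other animal. The unadjusted p-value was 1.55e-04, between 4.21e-05 and 0.00182 over the fits without 1 animal, and 0.102 by limma. The window lay between a left flank of 28.9% (19 cytosines) and a right flank of 7.48% (9 cytosines), and its own cytosines ranged from 7.80% to 31.7%.

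At chr17:72363101-72363200, with 7 cytosines between 14.6% and 24.5%, the Tough animals had 11.6%, 16.2% and 20% and the Tender animals 14.5%, 23.7% and 29.1%. Tender 2, at 14.5%, lay among the Tough animals (difference of means 6.99 points, exact permutation p = 0.0281). At chr16:80548401-80548500 (4 cytosines), the values were 8.19%, 13.1% and 17.6% in Tough and 16.5%, 19.4% and 26.1% in Tender (difference 6.82 points, exact permutation p = 0.0108). This window had 88 to 171 reads per animal, the smallest depth of the 5. At chr13:57723101-57723200, also with 4 cytosines, they were 17.4%, 19.3% and 24.2% in Tough and 21.2%, 24.9% and 28.0% in Tender (difference 5.27 points, exact permutation p = 0.00649). Its left flank was almost unmethylated, at 2.72% over 8 cytosines. At chr25:2641701-2641800, where 11 cytosines of the plus strand were covered, they were 9.95%, 13% and 18.5% in Tough and 16.1%, 19.3% and 25.1% in Tender (difference 6.12 points, exact permutation p = 0.00866). By limma, none of the 5 windows higher in Tender passed an unadjusted p-value of 0.05 (0.0710 to 0.222). The last 4 windows overlapped between groups, and their Benjamini-Hochberg adjusted p-values in the logistic regression lay between 0.116 and 0.160.

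Of the windows higher in Tough, chr6:108742701-108742800 had the smallest p-value. Over 5 cytosines and 214 to 348 reads, the Tough animals had 16.7%, 21.4% and 26.5% and the Tender animals 15.5%, 16.4% and 18.5%. The Tender animals were close together (16.7% ± 1.13) and the Tough animals spread more widely (21.5% ± 3.5, SD, n = 6 each), with a difference of means of -4.73 points, Tender minus Tough, and an exact permutation p = 0.0108. Both of its flanks had a level of 21.5%. At chr29:44464501-44464600 (8 cytosines), the Tough animals had 16.6%, 19.6% and 23.7% and the Tender animals 11.5%, 13.1% and 21.5% (difference -5.29 points, exact permutation p = 0.0260). The other 3 windows of this direction, chr29:50743901-50744000, chr22:18297801-18297900 and chr21:26941801-26941900, had differences of -5.25, -4.13 and -5.22 points and exact permutation p-values of 0.0519, 0.115 and 0.0779. In chr22:18297801-18297900 the difference lay on the minus strand (63.9% ± 12.8 in Tough and 44.3% ± 12.1 in Tender, SD, n = 6 each, 2 cytosines), while the plus strand had 14.9% ± 2.70 and 13.7% ± 4.83. The strands of this window were covered at different CpGs. By limma, none of these 5 windows passed either (unadjusted p-values of 0.137 to 0.310). The Benjamini-Hochberg adjusted p-values of the 5 windows in the logistic regression lay between 0.175 and 0.488.

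**Figure D5:**
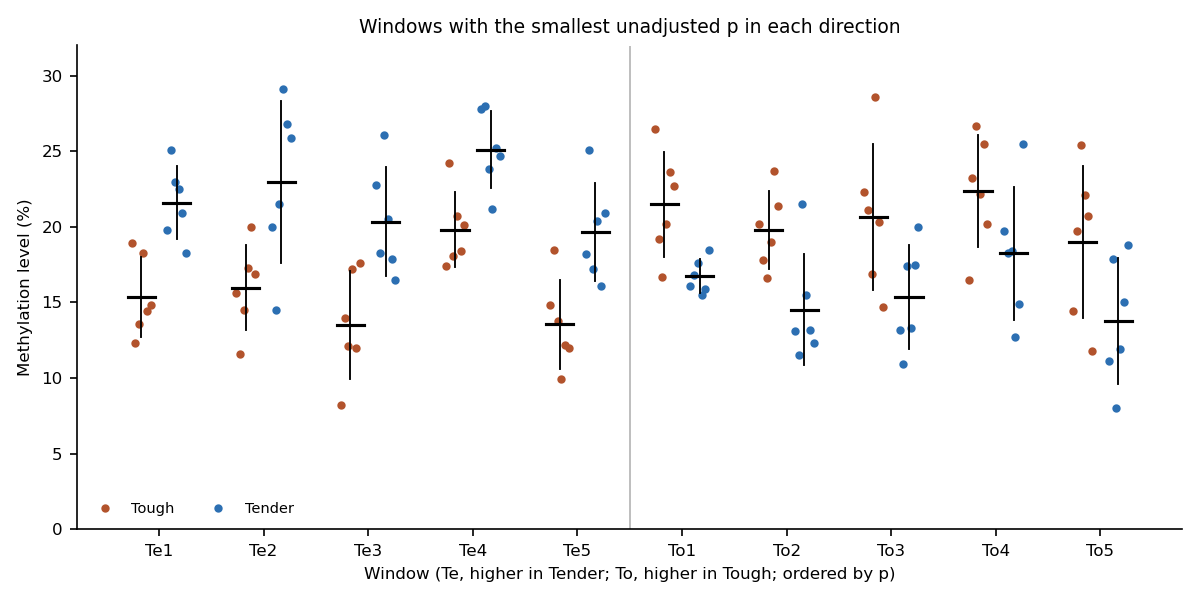
Methylation level (%) of each Tough (brown) and Tender (blue) animal in the 5 windows of each direction with the smallest unadjusted p-value of the logistic regression, with the group mean and SD as black lines. Te1 to Te5, higher in Tender, are chr13:23444901-23445000, chr17:72363101-72363200, chr16:80548401-80548500, chr13:57723101-57723200 and chr25:2641701-2641800, and To1 to To5, higher in Tough, are chr6:108742701-108742800, chr29:44464501-44464600, chr29:50743901-50744000, chr22:18297801-18297900 and chr21:26941801-26941900. The groups overlap in all 10 windows.

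No difference between groups beyond the spread of the animals was found in the 4 most even and the 4 least even windows. In these windows the exact permutation p-values lay between 0.126 and 0.942, and the differences of means between -3.29 and 4.09 points. For the 4 windows just inside the lower bound they were 0.00866 (chr8:64879601-64879700), 0.0476 (chr7:19790701-19790800), 0.173 and 0.506. The first had 12.5% ± 2.66 in Tough and 19.2% ± 4.69 in Tender (SD, n = 6 each). All 4 were named for a low Tough animal, which favours a lower Tough mean. Just inside the upper bound the exact permutation p-values lay between 0.364 and 0.911.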

How the data were processed

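RRBS of 12 muscle samples, 6 Tough and 6 Tender, was used. According to the labels and the methods, 50 bp reads were trimmed (Trim Galore 0.4.1), mapped with Bismark 0.23.0 on ARS-UCD1.2 (bosTau9) and processed by the authors in methylKit 1.8.1, with a minimum of 10 reads for a cytosine, a maximum at the 99.9th percentile of coverage and normalization between libraries. The deposited methylated and unmethylated values of 635469 cytosines, 1 row per strand, are scores, since the authors had rescaled each animal (by 1.00 to 1.27) and rounded. They are called reads here, and totalled 18399401 to 23470740 per animal. The tests were planned for read counts and were kept. Unscaled reads, recovered exactly for all but 0 of the values, served as an alternative.

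The rule for the windows, the gene lists and the tests were chosen with earlier results of these data known. Reads of each of 193249 windows were modelled by logistic regression on group (Python 3.11.15, numpy 2.4.6, scipy 1.17.1, pandas 2.3.3), scaled by McCullagh and Nelder's overdispersion factor (1 or more), with the chi-square test of the paper's methods and Benjamini-Hochberg adjustment. The code was tested on simulated data. The F-test, a fit without overdispersion, limma 3.58.1 on log2 ratios (pseudocount 1), unscaled reads, other bounds, strands, window grids and flanks, and leaving out each animal were tried as well. Added after seeing the data were the background set of the library as a factor, the within-set differences, the F-test on unscaled reads and the count of even windows. Named windows were also compared by an exact two-sided permutation of 6 against 6 animals. They were the 5 of smallest p-value for either direction, the 5 with most cytosines, the 4 most and the 4 least even with at least 6 cytosines, the 4 with the smallest and the 4 with the largest SD, the longest run, and the 4 just inside and just outside each bound. Binomial errors cover counting only. No genome or annotation of this build was used, so genes, CpG islands, sequences and the gene lists were not analysed here. Figures were drawn with matplotlib 3.10.9.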

Additional observations from a re-analysis of the deposited data

Results flagged for a closer look

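Of 104 groups of 6 animals examined in the named windows and the summary measures, 8 had an animal apart from the rest, by the gap to the next animal as a share of the group's range (Dixon's 95% criterion). Chance alone gives about 1 in 20 where groups are picked without regard to their values. Many of the windows were named for their SD, their p-value or an animal near a bound, so this rate need not hold here. Tough 3 had 15.1% at chr19:18474101-18474200, against a Tough median of 9.31% (gap 0.763). At chr22:48978001-48978100 Tender 6 had 24.1%, against a Tender median of 14.1% (gap 0.793). Tough 6 stood apart at chr16:49363001-49363100 with 15.2% (gap 0.661) and at chr9:50908701-50908800 with 15.5% (gap 0.630), both above the other Tough animals. At chr18:53393301-53393400 Tender 2 had 21.2%, against a Tender median of 14.2% (gap 0.756). Each of these values was inside the bounds of the rule. The other 3 lay in windows just outside it, with Tough 2 at 28.4% (gap 0.647) and Tender 2 at 7.97% (gap 0.663) at chr26:22317501-22317600, and Tender 6 at 11.5% (gap 0.758) at chr12:86449901-86450000. Outside the autosomes, which the report does not use, 2 windows also had at least 4 cytosines and a level from 8% to 30% in all 12 animals.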

How the results depend on the processing

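The number of windows followed the bounds. It was 474 as reported, 1072 with a lower bound of 5%, 266 with 10%, 45 with an upper bound of 20%, 279 with at least 6 cytosines and 94 when every cytosine had to lie from 8% to 30%, while unscaled reads (506), at least 3 cytosines (603), merged strands (381), a grid shifted by 50 bp (448) and unweighted means (471) moved it by less than 1.5 times. The share of even windows was 36.8% over cytosines with at least 20 reads in every animal, which leaves fewer cytosines per window, and the share with a sharp border was 6.75% with flanks of 1000 bp. Without overdispersion correction, 145 windows had an unadjusted and 77 an adjusted p-value under 0.05, as had 26.5% and 24162 of all windows, and by limma 2 had an unadjusted one. The cause of the limma count was not tested. With the background set as a factor, 2 windows passed the adjusted threshold. Leaving out each animal and choosing the windows again gave 498 to 555 windows, 19.4% to 22.8% even. The mean difference over them was 0.822 to 1.31 points. The logistic regressions without 1 animal were counted over the fixed 474 windows. Of these, 41 to 61 had an unadjusted and 0 to 5 an adjusted p-value under 0.05. Among all windows, 8.76% to 9.60% had an unadjusted one and 631 to 923 an adjusted one. The 5 windows of smallest p-value in each direction kept their direction with unscaled reads and without each animal, and 33 of all 170 alternative fits put their unadjusted p-value above 0.05, among them the limma fit for each of the 10. No paired analysis was possible because the labels give no replicate numbers that the groups share.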
